A study of Mus musculus with 6 samples.

Results

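Stable tiles of intermediate methylation are stretches of the mouse genome that were neither clearly unmethylated nor clearly methylated in control germ cell DNA, and that read nearly the same in each control library. The autosomes were divided into tiles of 500 bp, and a tile was usable when it held at least 7 CpG cytosines listed in all 6 libraries. The level of a tile in a library was the percent of its reads that showed C. Tiles were chosen by their Control levels alone: a tile was kept when its mean over the 3 Control libraries was between 20 and 80%, when those libraries spanned less than 20 points, and when the mean on each strand taken alone was also between 20 and 80%. The rule kept 8673 of 79015 tiles (10.98%), which hold 108140 of 1733832 cytosines. Of 11432 tiles with a Control mean of 20 to 80%, 368 were left out for their spread and 2391 for the strand condition. The rule read Control values only, so the level, spread and strand agreement of these tiles in Control are descriptions, and the CSDS libraries are the samples it did not use.

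DNA came from male germ cells of mice and was profiled by reduced representation bisulfite sequencing (RRBS), which cuts DNA at a fixed restriction site, converts unmethylated cytosine to uracil and sequences the fragment ends. The groups were Control and CSDS, chronic social defeat stress, in which a male is repeatedly exposed to a dominant aggressor, with 3 libraries in each. The labels give no strain, age, stage of germ cell, purification or time after stress, and do not say whether a replicate is a separate animal or a pool. The p-values below therefore measure only the spread between these libraries, which may be technical.

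In mammals most CpGs are methylated on both strands, CpG islands at promoters are mostly not, and the maintenance machinery copies the pattern to each daughter strand. Levels in between are known from imprinted regions in somatic tissue, where only the allele of a given parent is methylated, from flanks of CpG islands, from repeats and from mixtures of cells. In male germ cells imprints are set on the paternal pattern in every cell, so an imprint should not be intermediate there. In bulk DNA a tile of intermediate level can come from cells that differ, alleles that differ or CpGs that differ, and a mean per cytosine cannot tell the first pair apart.

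The label was checked against the imprints. The 18 maternally methylated imprint regions with data stood at 16.9% (Control) and 12.7% (CSDS) in the median, with a highest Control value of 23.7% at Snrpn. Of the paternally methylated regions, Meg3 read 97.4% in Control, Rasgrf1 88.1% and H19 46.5%, on 7, 6 and 24 cytosines. Low maternal and high Meg3 and Rasgrf1 levels are the pattern of male germ cells, while H19, which is methylated in them, read in the middle. Region bounds are approximate.

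The promoter sequences that follow show the kinds of tile met in the data, each with the 250 bases before a gene start in the RefSeq table for GRCm38.p6, written 5′ to 3′ on the strand of the gene. Capitals mark CCGG, the site cut by MspI, the enzyme of RRBS. CCGG reads the same on both strands. It occurs in 17338 of 32851 promoter windows (52.8%), so its presence alone is common. The windows of that count also run past the 250 bases printed here. The Vmn2r29 and Sh3bgrl3 promoters are shown because their tiles held CpGs whose strands differed in level. A split between strands in these tiles therefore follows from the choice. Gm24463 and Gm40862 are shown because nearly all their CpGs were intermediate, and Gm40847 because it is a near copy of Gm40862. Vmn2r29 belongs to the vomeronasal receptor family, Sh3bgrl3 encodes a small thioredoxin-like protein, and the Gm symbols are predicted genes.
Vmn2r29, chr7:7278290-7278539, minus strand: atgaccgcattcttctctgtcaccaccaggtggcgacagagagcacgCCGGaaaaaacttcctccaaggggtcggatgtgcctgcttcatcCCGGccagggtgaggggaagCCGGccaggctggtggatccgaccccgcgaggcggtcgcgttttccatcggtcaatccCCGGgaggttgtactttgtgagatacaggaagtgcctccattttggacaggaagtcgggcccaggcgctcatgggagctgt
Sh3bgrl3, chr4:134128734-134128983, minus strand: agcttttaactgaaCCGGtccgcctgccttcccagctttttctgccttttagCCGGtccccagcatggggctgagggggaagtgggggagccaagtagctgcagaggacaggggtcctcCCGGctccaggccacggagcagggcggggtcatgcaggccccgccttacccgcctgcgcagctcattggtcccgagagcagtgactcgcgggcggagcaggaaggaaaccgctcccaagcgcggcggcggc
Gm24463, chr9:89066579-89066828, plus strand: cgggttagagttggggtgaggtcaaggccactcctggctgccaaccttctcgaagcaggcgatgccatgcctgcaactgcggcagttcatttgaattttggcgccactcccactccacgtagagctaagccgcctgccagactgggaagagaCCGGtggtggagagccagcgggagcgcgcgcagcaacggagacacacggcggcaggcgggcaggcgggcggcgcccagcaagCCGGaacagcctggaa
Gm40862, chr12:23634393-23634642, minus strand: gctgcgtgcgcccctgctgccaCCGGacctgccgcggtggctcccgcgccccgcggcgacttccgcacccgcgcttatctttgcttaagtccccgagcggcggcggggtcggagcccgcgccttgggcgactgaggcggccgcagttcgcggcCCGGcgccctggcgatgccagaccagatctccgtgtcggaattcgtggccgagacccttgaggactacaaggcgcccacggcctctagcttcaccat
Gm40847, chr12:18853705-18853954, plus strand: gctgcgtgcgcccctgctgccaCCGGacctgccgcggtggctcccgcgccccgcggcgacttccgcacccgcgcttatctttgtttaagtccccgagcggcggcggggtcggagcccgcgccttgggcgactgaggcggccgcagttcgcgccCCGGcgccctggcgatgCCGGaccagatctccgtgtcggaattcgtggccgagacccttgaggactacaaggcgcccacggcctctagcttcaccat

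The Vmn2r29 window holds 4 CCGG sites and 17 CpGs in all. At the CpG of the site at base 113 of the printed sequence (counted from 1 at its 5′ end), the cytosine of the opposite strand read 98.2% in summed Control reads and that of the gene strand 11.6%. At base 93 the order was turned, with 81.6% on the gene strand and 11.5% on the opposite strand, and at base 49 the opposite strand read 96.9% against 15%. The site at base 171 was read on the opposite strand only, at 13.4% in Control, so a split could not be seen there. The 16 cytosines outside CCGG read between 4.78 and 16.1% in Control and between 2.30 and 10.1% in CSDS. The tile around it, chr7:7278001-7278500, had 50 cytosines and read 28.1, 23.5 and 27.8% in Control and 19.09, 19.9 and 20.9% in CSDS. Every CSDS library lay below every Control library. The difference was -6.55 points (quasi-binomial F test, adjusted p = 0.159), and 27 cytosines of the tile outside the window ranged from 19.5 to 96.9% in Control, with a median of 38.8%. Without its 4 CpGs whose strands differed by 40 points or more in CSDS reads, the tile still read 24.9% in Control.

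Sh3bgrl3 showed the split at 1 of its 3 sites. Its tile, chr4:134128501-134129000, read 23.3, 22.3 and 21.6% in Control and 21.7, 16.4 and 13.6% in CSDS, so CSDS replicate 1 lay among the Control libraries. The 6 cytosines in CCGG ranged from 8 to 93.5% in Control, with 93.5% on the gene strand and 8% on the opposite strand of the same CpG at base 121. At base 54 the strands read 28.6 and 27.1%, and at base 16 they read 32.5 and 30.6%, so both sites were intermediate on both strands. The 2 other cytosines of the window that were read stood at 5.51 and 8.46%. Without its 5 CpGs whose strands differed, its Control level was 19.5%, under the limit of the rule.

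Gm40862 is the opposite case. Its tile, chr12:23634501-23635000, holds 78 cytosines and read 60.1, 60.7 and 62.5% in Control and 62.7, 61.8 and 54.9% in CSDS. The groups overlap, and none of its 33 CpGs read on both strands differed by 40 points. The 40 window cytosines outside CCGG were at 50.6% (Control) and 60.5% (CSDS) in the median. Gm40847 has the same sequence at 247 of 250 bases (98.8%), with differences T84C, C152G and G173A, Gm40847's base first and counted from 1 at the 5′ end. The last of these sits in a CCGG that Gm40847 has and Gm40862 lacks. The tile of Gm40847, chr12:18853501-18854000, read 18.6, 30.1 and 26.1% in Control and 29.3, 23.5 and 18.97% in CSDS. The tiles of these near-identical promoters thus stood at 61.1% ± 1.26 and 24.9% ± 5.88 (SD, n = 3) in Control, and the lowest value of the first was above the highest of the second in all 6 libraries. Of their cytosines, 37 and 22 lie outside the compared windows. Inside the windows, the median cytosine outside CCGG read 50.6% at Gm40862 and 18.5% at Gm40847 in Control. Reads from copies this alike may be assigned to the wrong one, which was not tested, so both values are uncertain.

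In Gm24463 the level depended on the strand and the library. Its tile, chr9:89066501-89067000, read 37.2, 35.9 and 55.8% in Control and 44.5, 27.5 and 22.03% in CSDS, so the groups overlap and the difference of -11.7 points had an adjusted p of 0.299 (quasi-binomial F test). It was -5.25 points without Control replicate 3 and -18.3 without CSDS replicate 1, where it was called (adjusted p = 0.00307). Past the CCGG in the middle of the window, 11 cytosines on the gene strand read 49.7% in Control replicate 2 while the 11 on the opposite strand read 12.97%. In CSDS replicate 2 the same strands read 30.4 and 10.9%, and in CSDS replicate 3 the order was turned, at 16.1 and 27.5%. Before that site, the 6 cytosines on each strand read 17.1% on the gene strand and 35.4% on the opposite strand in Control replicate 1, but 52.5 and 52.9% in Control replicate 3. Each of these values rests on 104 to 1026 reads, and whether these reads are copies of few molecules was not tested.

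**Figure D1:**
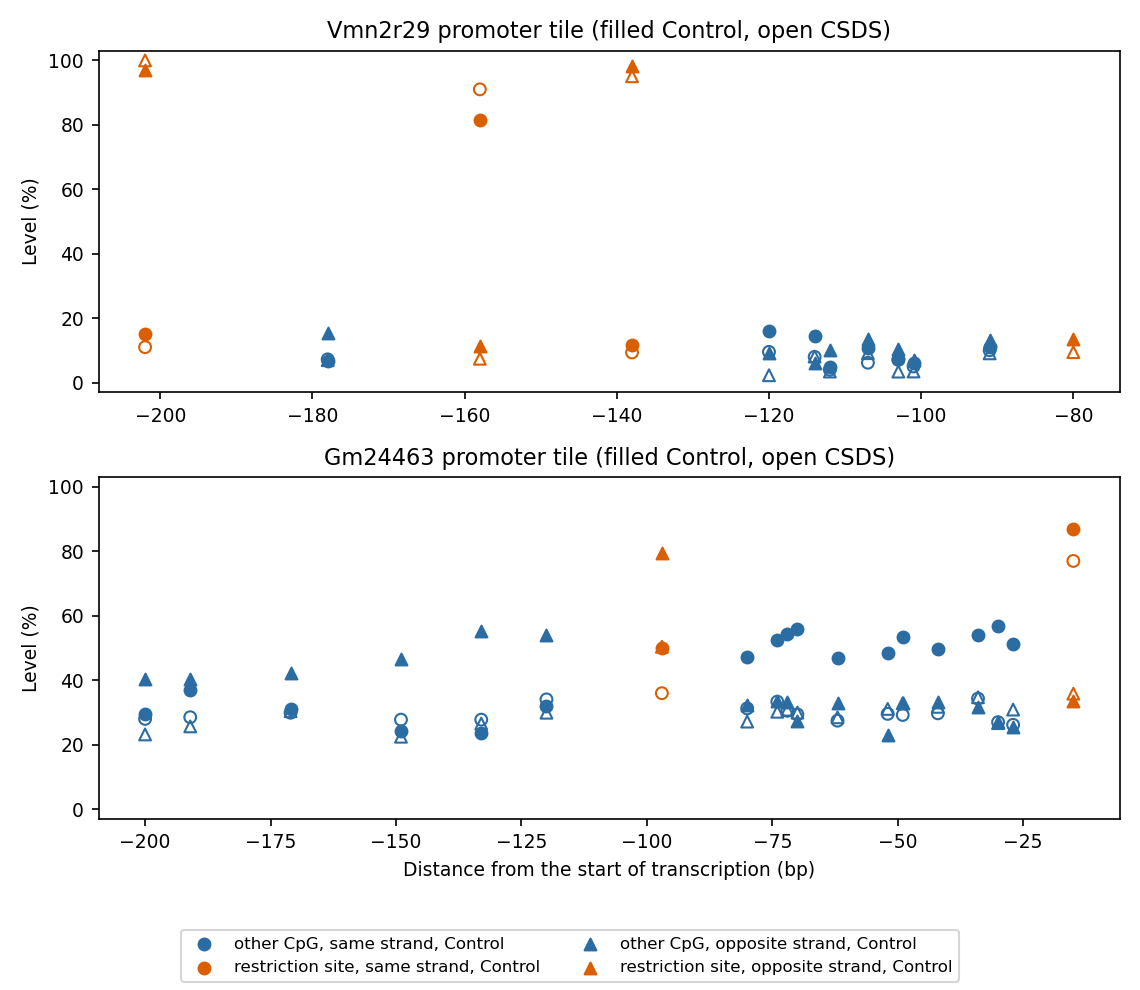
Level of each cytosine (%, reads summed over 3 libraries) against its distance from the start of transcription (bp) in the Vmn2r29 and Gm24463 promoters, filled symbols for Control and open for CSDS, circles for the gene strand, triangles for the opposite strand, orange for CCGG and blue for other CpGs. In Vmn2r29 the orange symbols of sites read on both strands split to 81.6% and above on 1 strand and 15% or less on the other in Control. The site at base 171 was read on 1 strand only. Blue symbols there stay between 4.78 and 16.1%, and in Gm24463 they lie between 22.9 and 56.9% in Control.

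Across all stable intermediate tiles, CpGs whose strands disagreed were common. In CSDS reads, 48498 CpGs of these tiles were read on both strands, and 8850 of them (18.2%) differed by at least 40 points between strands, against 61770 of 754591 (8.19%) over all tiles. The share was alike, 17.3%, in the other tiles at 20 to 80% in Control, so it is not particular to the stable ones. Among those others it was 18.4% where the strand condition failed and 8.13% where the Control spread was wide. In those 8850 CpGs the lower strand had a median of 19.4% and the higher strand 97.0%. The plus strand was the higher in 4435 and the minus strand in 4415, so neither strand was favoured and a mean per strand over the tile did not show it. At least 1 such CpG was present in 5741 of the 8673 tiles (66.2%), against 43.2% of all tiles and 51.4% of the other tiles at 20 to 80% in Control.

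The sites could be placed only inside the promoter windows, since no genome sequence was used here. Over all tiles, 9384 of 18777 CpGs in CCGG there (49.98%) differed by 40 points or more between strands, against 1 of 90629 other CpGs. In the stable intermediate tiles it was 220 of 381 CpGs in CCGG (57.7%) and 0 of 640 others. CCGG made up 846 of 2323 promoter cytosines in these tiles (36.4%), 26.0% in those of uniform make-up and 17.6% over all tiles. The median cytosine in CCGG read 44.2% in Control and 39.2% in CSDS (means of the 3 library medians), while the median cytosine outside it read 24.1 and 21.3%. The gap is not particular to intermediate tiles. In tiles under 20% in Control the same medians were 25.5 and 21.6% in CCGG against 6.55 and 3.58% outside. In tiles over 80% they were 95.1 and 93.6% against 93.8 and 92.8%, so there the site did not stand apart.

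**Figure D2:**
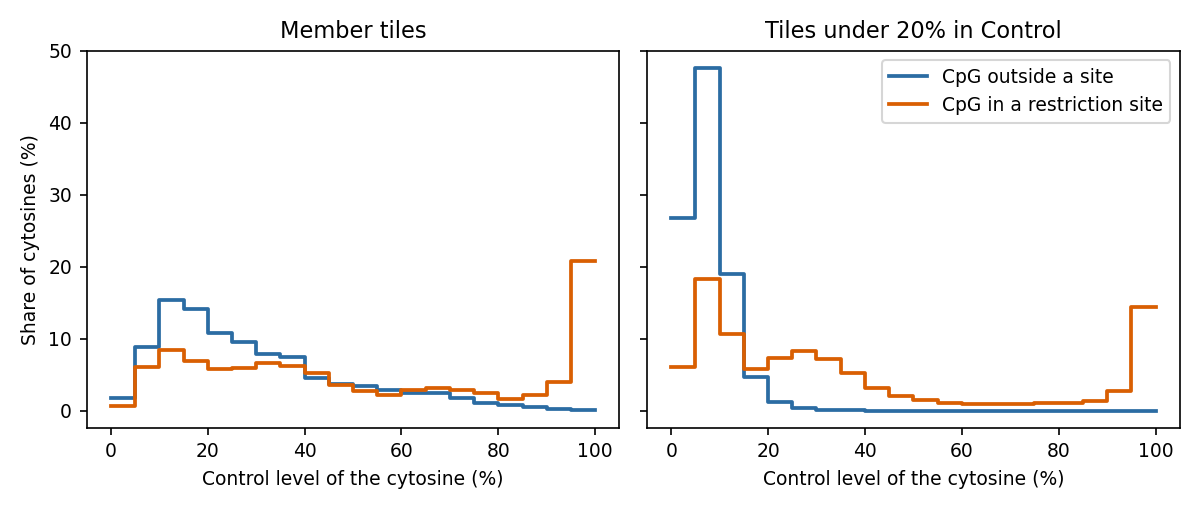
Share of promoter cytosines (%) by their Control level (%, in bins of 5 points) for CpGs in the restriction site CCGG (orange) and outside it (blue), in the stable intermediate tiles (left) and in tiles under 20% in Control (right). In both panels the orange line rises at 95 to 100%, with 20.8 and 14.4% of cytosines in CCGG, where the blue line holds 0.0677 and 0.0%.

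Levels outside the sites could be read in 173 of the 261 tiles with cytosines in a promoter window, those with at least 3 window cytosines outside CCGG. On these cytosines alone 92 stood at 20 to 80% in Control, 79 under 20% and 2 over 80%. The median of the 173 tiles was 22.7% on these cytosines and 27.8% on the whole tile. Of the 100 tiles with a whole-tile Control level of 20 to 30%, 76 were under 20% on these window cytosines. The whole tile also holds cytosines outside the window, as at Vmn2r29. Leaving out the sites and leaving out the rest of the tile are therefore not told apart here. Of the 43 with uniform make-up, 42 stayed at 20 to 80%. Over all contexts, leaving out the CpGs whose strands differed left at least 3 cytosines in 8642 tiles, of which 7530 were still at 20 to 80%, 1101 were under 20% and 11 over 80% in Control. Of those 8642, 6933 (80.2%) passed the whole rule on the remaining cytosines. Sites whose strands agree stay in such a tile, so these counts do not clear it of all CCGG.

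The tiles were not spread evenly between the limits. With a Control level of 20 to 30% there were 2886 (33.3%), and between 50 and 60% only 949 (10.9%). A tile was called uniform when at least 80% of its cytosines lay at 20 to 80% in summed CSDS reads, and split when at least 20% were under 20% and at least 20% over 80%. Of the 8673 tiles, 3002 (34.6%) were uniform, 792 split, 8 split with levels graded along the tile, and 4871 none of these. Over all tiles, of which 11.9% had a CSDS mean of 20 to 80%, 4.42% were uniform. Of the 368 tiles left out for their Control spread 56.25% were uniform, and of the 2391 left out for the strand condition 8.62%. Uniform tiles had a median Control level of 54.5% and split tiles of 26.6%. In the 20 to 30% bin 69 of 2886 tiles were uniform and 87.4% held a CpG whose strands differed, while in the 50 to 60% bin 706 of 949 were uniform. In the 70 to 80% bin 14.0% held such a CpG. By class, 47.6% of the CpGs of split tiles and 11.7% of those of uniform tiles differed between strands, and 1552 uniform tiles held at least 1.

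**Figure D3:**
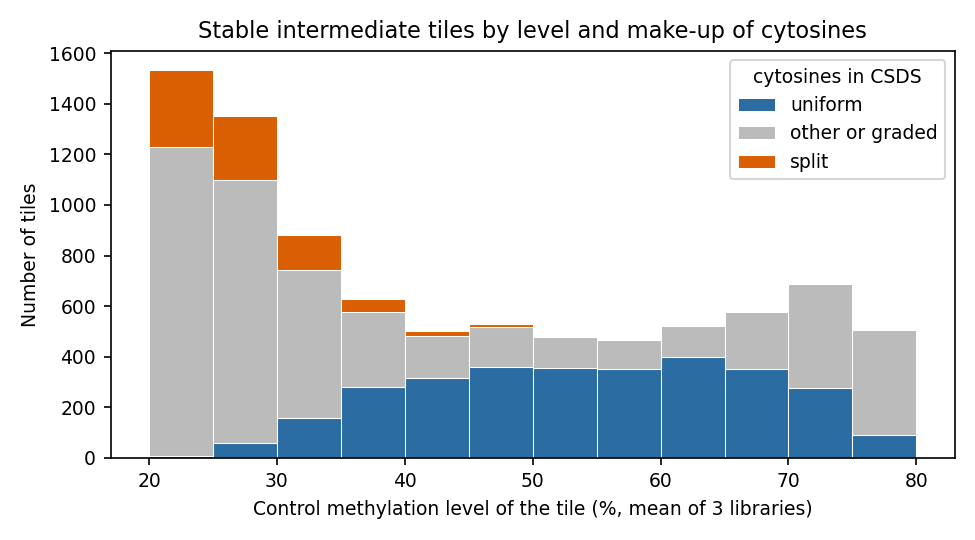
Number of stable intermediate tiles by Control level (%, mean of 3 libraries, bins of 5 points), stacked by make-up in CSDS reads: uniform (blue), none of the classes or graded (grey) and split (orange). The bins next to the lower limit are the fullest, and 69 of the 2886 tiles at 20 to 30% were uniform, against 706 of the 949 at 50 to 60%.

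Tiles on either side of a limit of the rule had like values. Those nearest the lower limit had Control means of 20.004 and 20.046% inside and 19.9998 and 19.9987% outside, with CSDS means of 16.8 and 12.96% against 18.5 and 16.2%. At the upper limit they had 79.8 and 79.8% inside and 80.004 and 80.007% outside. At the limit on spread, tiles on chromosomes 5 and 16 spanned 19.99 and 19.94 points inside, and tiles on chromosomes 5 and 4 spanned 20.01 and 20.01 points outside.

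Intermediate levels returned in the CSDS libraries, which had no part in the choice. The CSDS mean was at 20 to 80% in 7294 tiles (84.1%), under 20% in 1332 and over 80% in 47, while 78.3% of the 368 tiles left out for their spread and 42.7% of the 2391 left out for the strand condition stayed there. The last had a Control median of 22.8%, nearer the lower limit than the 39.4% of the members. The tiles that left were near the lower limit, with 54.4% of the 20 to 30% bin and at least 96.1% of each higher bin kept. The 3 CSDS libraries spanned a median of 7.53 points in these tiles, 4.52 points over all tiles and 11.5 points in the 368 left out for their Control spread. They spanned 20 points or more in 174 tiles (2.01%), against 0.487% of all tiles. In the other tiles at 20 to 80% in Control they spanned a median of 7.24 points, and 20 points or more in 4.28%. Tiles outside 20 to 80% have less room to span, so spans in points do not compare variability with tiles in general. The median quasi-binomial dispersion in CSDS, which allows for the level, was not higher in the stable intermediate tiles. It was 5.995 in them, 6.374 in those other tiles and 6.501 over all tiles. These dispersions come from levels as deposited. The CSDS libraries differed in the share of mitochondrial CpG cytosines read as C, given below. How far that share enters the dispersions, above all in tiles of low level, was not tested. Both strands were at 20 to 80% in CSDS in 6568 of the stable intermediate tiles, and the strands of a tile differed by a median of 4.13 points there.

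As deposited, the levels were lower in CSDS than in Control in most of these tiles, and likewise over all tiles. The median tile read 39.7, 40.1 and 38.8% in Control replicates 1 to 3 and 39.1, 34.5 and 33.8% in CSDS replicates 1 to 3, so CSDS replicate 1 lay among the Control libraries and the other CSDS libraries below. Over all tiles the medians were 39.0, 39.6 and 38.3% against 38.5, 33.8 and 33.2%. The median difference was -3.67 points over the stable intermediate tiles and -2.52 over all tiles, with 7330 of 8673 (84.5%) and 81.6% lower in CSDS. In the 2759 other tiles at 20 to 80% in Control it was -3.70 points, with 82.8% lower, so the difference is not particular to the stable ones. A difference of at least 10 points downward was found in 411 of the tiles (4.74%; 1.07% of all tiles) and upward in 10 (0.115%; 0.0506% of all tiles).

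The share of mitochondrial CpG cytosines read as C, which measures incomplete conversion where mitochondrial DNA is unmethylated, moved with the libraries that were low. It was 8.90, 8.84 and 10.04% in Control and 8.50, 4.41 and 4.53% in CSDS (medians of 27 cytosines). With levels corrected by that share, the medians of the tiles were 33.8, 34.3 and 31.96% in Control and 33.4, 31.5 and 30.7% in CSDS. CSDS replicate 1 then still lay among the Control libraries, and the median difference was -1.50 points, against -0.399 over all tiles. Over the other tiles at 20 to 80% in Control it was -1.29 points. After correction 66.8% of the tiles and 59.1% of all tiles were lower in CSDS.

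**Figure D4:**
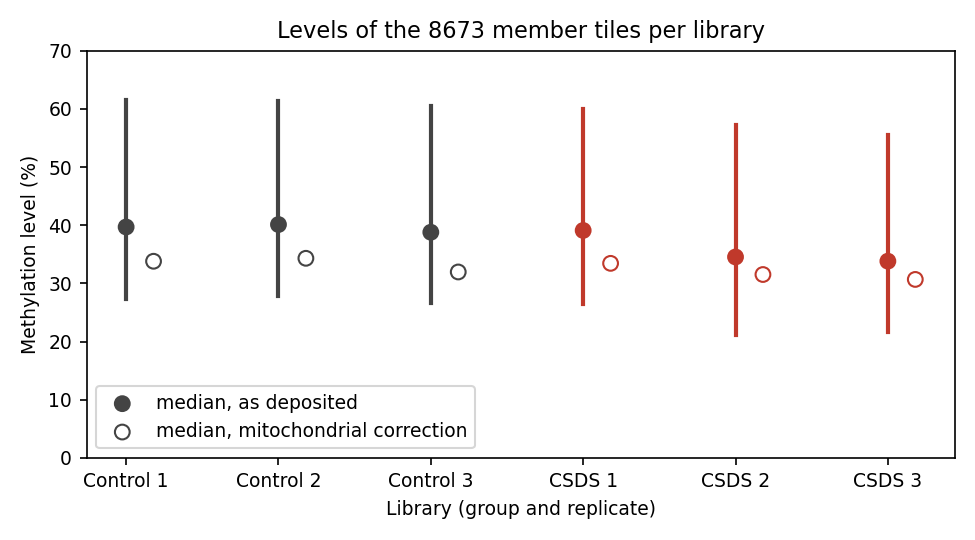
Median level of the 8673 tiles (%) in each library as deposited and after correction by the mitochondrial share, with vertical lines from the lower to the upper quartile as deposited, Control in dark grey and CSDS in red. The Control medians as deposited are 38.8 to 40.1%, CSDS replicate 1 is at 39.1%, and CSDS replicates 2 and 3 are at 34.5 and 33.8%; corrected medians run from 30.7 to 34.3%.

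No tile passed the test between the groups, a quasi-binomial F test with Benjamini-Hochberg adjustment over all 79015 tiles at an adjusted p under 0.05 and a difference of at least 10 points (0 of 8673; background 0.0%). At an unadjusted p under 0.05 there were 1219 tiles (14.1%), below the background of 22.3%, and the lowest adjusted p was 0.159. All CSDS libraries lay under all Control libraries in 1822 tiles (21.0%; background 22.3%) and above in 45 (0.519%; background 1.11%). Limma on log2 ratios called 0, with 509 (5.87%; background 15.6%) at an unadjusted p under 0.05. edgeR's quasi-likelihood test called 2, Ube2u and Ppp2ca (6 over all tiles, background 0.00759%), with 572 (6.595%; background 19.5%) at an unadjusted p under 0.05. Without CSDS replicate 1 the count was 804 of 8673 tiles, 799 lower and 5 higher in CSDS, against 1693 of all 79015 tiles. The CSDS libraries then left had mitochondrial shares of 4.41 and 4.53%, against 8.84 to 10.04% in Control. In this setting the groups thus cannot be told apart from that share, and it was not run with the mitochondrial correction. Of the tiles described here, 17 were then called, among them both tiles at Zdbf2, Tdrd6, Gm24463, all 10 picked below as lower in CSDS, and Trio, Slc22a2 and Zfp536. Since the rule kept tiles with a narrow Control spread, the spread in these tests is smaller than the one a free choice would give.

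The tiles with groups apart and the smallest unadjusted p were picked 10 each way. Among those lower in CSDS, Ube2u, a member of the ubiquitin-conjugating enzyme family, had the largest difference. Its gene end tile, chr4:100478501-100479000, read 33.2, 26.1 and 27.7% in Control and 12.6, 7.75 and 8.98% in CSDS, on 491 to 1045 reads per library. All CSDS libraries lay more than 10 points under the lowest Control library. The difference was -19.2 points (quasi-binomial F test, adjusted p = 0.159; edgeR, adjusted p = 0.0467), and -23.0 points without the 1 CpG of 7 whose strands differed.

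Ppp2ca encodes the catalytic subunit of protein phosphatase 2A. Its gene end tile, chr11:52099501-52100000, read 13.4, 27.0 and 23.7% in Control and 7.50, 2.76 and 3.15% in CSDS. The groups were apart, with Control replicate 1 nearer the CSDS libraries than the other Control libraries were, and none of its 10 CpGs differed between strands. The difference was -16.9 points (quasi-binomial F test, adjusted p = 0.159; edgeR, adjusted p = 0.0467).

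Cdc26 and Prpf4 share a gene end tile at chr4:62409501-62410000, the first a subunit of the anaphase-promoting complex and the second a splicing factor. It read 28.2, 31.1 and 30.1% in Control and 15.9, 12.1 and 14.7% in CSDS. The groups were apart, by -15.6 points between the means. Prickle2, a planar cell polarity gene, had an interior tile at chr6:92376001-92376500 that read 23.4, 27.6 and 27.5% in Control and 15.5, 9.82 and 12.2% in CSDS. In these 4 tiles and in Gm15786 and Rpl6l the CSDS mean had left the 20 to 80% range, at 4.47 to 16.3%, and the adjusted p was 0.159 in each (quasi-binomial F test).

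The others on the lower side stayed intermediate. A tile with no gene at chr4:153079501-153080000 had 29 cytosines, was uniform and held no CpG whose strands differed. It read 63.6, 61.8 and 61.6% in Control and 49.4, 47.2 and 49.9% in CSDS, so each group was narrow, and the means differed by -13.5 points. Gm33827, a uniform tile at chr7:98872001-98872500, read 52.2, 49.2 and 49.1% in Control and 38.4, 39.1 and 35.5% in CSDS. Gm5049 and a tile with no gene on chromosome 8 had differences of -11.8 and -11.1 points. CSDS replicate 1 was low together with the other CSDS libraries in all 10 of these tiles, which the choice of tiles with groups apart requires.

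Tiles higher in CSDS included Slc22a2, a transporter of organic cations. Its uniform gene end tile, chr17:12584001-12584500, read 38.4, 41.5 and 41.6% in Control and 55.0, 54.0 and 47.6% in CSDS. All CSDS libraries were above the highest Control library, and the means differed by 11.7 points (quasi-binomial F test, adjusted p = 0.159). Slc22a2 is also on the list of imprinted genes below.

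Trio had an interior tile at chr15:27799001-27799500 that read 44.2, 31.2 and 37.2% in Control and 48.8, 53.8 and 51.0% in CSDS. The groups did not overlap, with a difference of 13.7 points and an adjusted p of 0.159 (quasi-binomial F test). A tile with no gene at chr15:78832501-78833000 had the largest upward difference, 14.1 points, with 47.6, 42.7 and 34.3% in Control and 59.7, 48.6 and 58.4% in CSDS. Its groups nearly met, at Control replicate 1 and CSDS replicate 2.

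Mmd2, Rbp7, a retinol-binding protein gene, Zfp536, a zinc finger gene, Gm27216 and Igsf23 followed with differences of 7.73 to 9.84 points, and a pair of tiles with no gene on chromosomes 1 and 17 with 9.12 and 7.11 points. Their adjusted p ran from 0.161 to 0.218 (quasi-binomial F test). After correction by the mitochondrial share each of the 10 was higher in CSDS by more than before, Trio by 16.97 and Slc22a2 by 14.9 points, and each of the 10 lower tiles by less, Ube2u by -17.5 points.

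**Figure D5:**
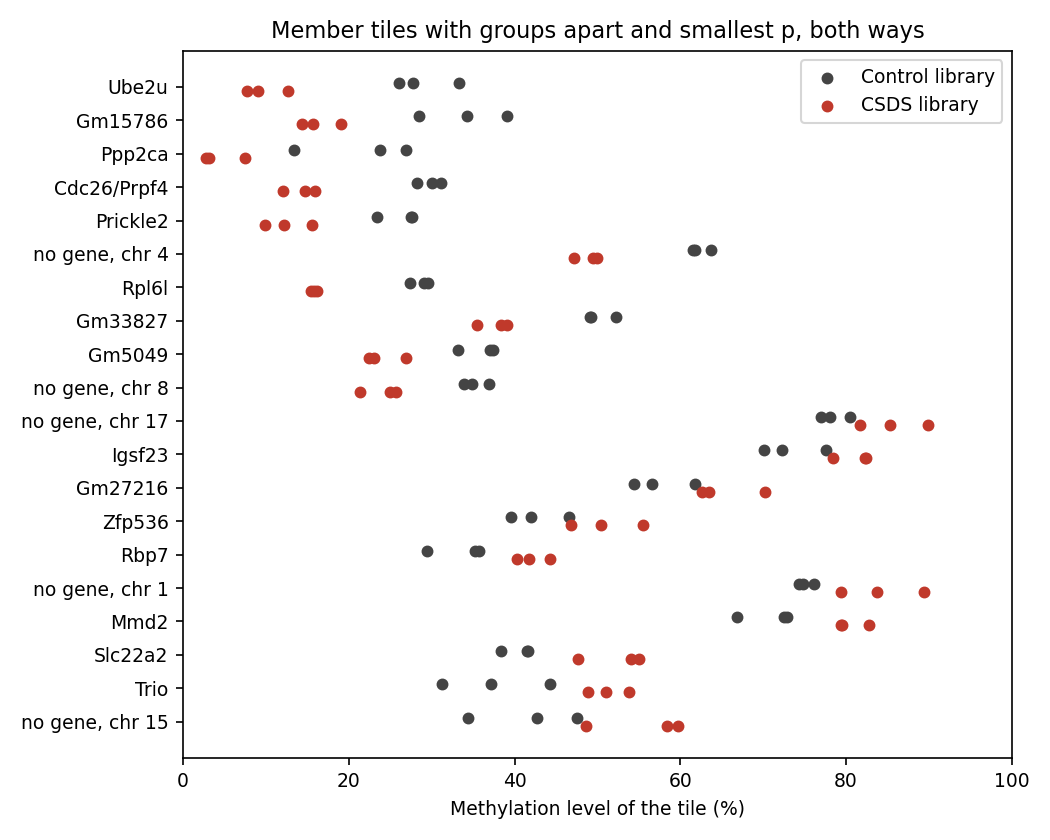
Methylation level (%) of each Control library (dark grey) and each CSDS library (red) in the 20 stable intermediate tiles whose groups do not overlap and whose unadjusted p is smallest, 10 lower (top) and 10 higher in CSDS, ordered by difference. Differences run from -19.2 points at Ube2u to 14.1 points on chromosome 15.

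By position, stable intermediate tiles were more often away from genes than tiles in general. Of the 8673 tiles, 2143 (24.7%) lay within 1 kb of a gene start or end, 3299 (38.0%) inside a gene and 3231 (37.3%) between genes, against 39.2, 38.6 and 22.3% of all tiles. In the other tiles at 20 to 80% in Control the shares were 30.3, 35.1 and 34.6%, so a place away from genes is not particular to the stable ones. Within 1 kb of a transcription start there were 12.9% of the stable intermediate tiles and 8.03% of the uniform ones. It was 17.7% of the other tiles at 20 to 80% in Control and 29.3% of all tiles. Put the other way, 6.93% of gene end tiles, 10.8% of interior tiles and 18.4% of intergenic tiles were stable and intermediate. The median difference between the groups was -3.93, -3.65 and -3.50 points in these contexts. By chromosome the share ran from 9.93% on chromosome 11 to 12.9% on chromosome 10. Coverage was a little above that of all tiles, with a median of 69.4 reads per cytosine against 63.6, on a median of 10 cytosines against 12.

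The tiles next to them were often intermediate as well. Of 3884 measured neighbouring tiles, 60.7% were at 20 to 80% in Control, 28.7% under 20% and 10.6% over 80%, while 12.99% of the neighbours of all tiles were intermediate. Next to uniform tiles it was 82.8%. Both sides were measured at 421 tiles, of which 142 had both neighbours intermediate and 39 lay between a neighbour under 20% and a neighbour over 80%.

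Of the 8673 tiles, 3463 had a measured neighbour at all, and 7619 had no adjacent tile that met the whole rule, most of them for want of a measured one. Adjacent ones formed 460 runs of 2 tiles, 29 of 3, 8 of 4 and 3 of 5. Among the longest is chr10:80311501-80314000 in Apc2, a relative of the tumour suppressor Apc. Its 5 tiles read 42.4, 35.6, 24.0, 59.3 and 65.0% in Control and 40.6, 35.4, 24.0, 60.2 and 66.3% in CSDS, 4 of them uniform. The level dipped and rose along the gene in both groups alike. In Prdm11, a gene of the PR domain family, the 5 tiles of chr2:92972001-92974500 read 76.5, 70.5, 49.0, 27.4 and 25.5% in Control and 75.8, 63.8, 50.8, 25.6 and 18.4% in CSDS, a fall along the coordinate. The run at 2810410L24Rik and Gm9734, chr11:120186001-120188500, stayed between 24.6 and 35.6% in Control, with a CpG whose strands differed in each of its 5 tiles and none of them uniform. Evpl, which encodes envoplakin of the cornified envelope, had a run of 4 tiles that read 68.3, 38.2, 35.8 and 71.1% in Control and 60.9, 34.2, 28.8 and 63.0% in CSDS, low in the middle.

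Tiles of very high coverage were few. Of the 8673, 12 had a mean above 1000 reads per cytosine, of 25 such tiles in all. They were picked after their values were seen. At chr2:98666001-98666500, with no gene, 8 cytosines had a mean of 63393 reads and read 38.3, 39.3 and 39.8% in Control and 38.6, 35.3 and 34.5% in CSDS. The Control libraries lay close together and CSDS replicate 1 lay among them. The strands of this tile stood far apart, at 61.1% (plus) and 27.1% (minus) in Control. Without the 1 of 4 CpGs whose strands differed it read 56.6% in Control and 53.5% in CSDS. Rn18s-rs5, a sequence related to 18S ribosomal RNA, gave a run of 4 tiles with 450 cytosines at chr17:39844501-39846500. The tile chr17:39845501-39846000 of that run read 14.2, 32.4 and 26.3% in Control and 22.1, 12.2 and 17.2% in CSDS. Control replicate 1 stood far under the other Control libraries, and the groups overlap. Gm36876 on chromosome 11, chr11:109011501-109012000, followed the same order of libraries, with 14.8, 31.5 and 25.3% in Control and 23.4, 13.7 and 17.8% in CSDS. Whether these tiles are repeats whose copies the alignment joined was not tested. Over the 8673 tiles the middle 90% had a coverage of 40.7 to 102 reads per cytosine.

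A block on chromosome 12 between 15 and 25 Mb, with bounds set by hand, held 55 such tiles of 336 (16.4%), against 10.98% of all tiles. Higher shares were found elsewhere, up to 33.3% in a window of 5 Mb. In the block 21 of the tiles were uniform, and the medians were 57.5% (Control) and 48.1% (CSDS). These medians were taken separately. The median difference per tile was -3.33 points over the stable intermediate tiles of all of chromosome 12. Gm40847 and Gm40862, described above, and Gm38699 and Gm10476 lie there. Gm38699, chr12:23800501-23801000, read 46.0, 61.3 and 65.2% in Control and 60.1, 60.2 and 48.7% in CSDS, and Gm10476, chr12:22466501-22467000, read 36.1, 43.8 and 42.5% in Control and 46.2, 45.8 and 26.2% in CSDS. In both the groups overlapped, and the sign of the difference turned when single libraries were left out. Whether reads were split between copies of alike sequence in this block was not tested.

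Other uniform tiles at gene ends with many cytosines were in genes of known families. Cdh24, a cadherin gene, had 70 cytosines at chr14:54632001-54632500 that read 39.8, 39.0 and 38.6% in Control and 40.9, 32.03 and 35.1% in CSDS. Zfp64, a zinc finger gene, read 36.3, 38.1 and 31.3% against 34.0, 35.7 and 31.8% at chr2:168894001-168894500. Mast1, a microtubule-associated kinase gene that shares its tile with Gm38426, read 66.0, 66.3 and 65.7% against 66.0, 65.0 and 62.1% at chr8:84923501-84924000. Zdhhc25, of the palmitoyltransferase family, read 60.0, 51.7 and 43.5% against 54.4, 47.5 and 59.4% at chr15:88600501-88601000. The groups overlapped in all 4, and adjusted p were between 0.371 and 0.968 (quasi-binomial F test).

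Genes of imprinting were looked at next, since an intermediate level there is the state of somatic tissue. Tiles in or within 1 kb of maternally imprinted genes were stable and intermediate in 14 of 127 cases (11.02%), those of paternally imprinted genes in 4 of 26 and those of other imprinted genes in 7 of 88, against 10.98% of all tiles. Inside imprint control regions it was 3 of 38 tiles at maternal and 0 of 2 at paternal regions. At Snrpn, whose promoter is methylated on the maternal allele, the tile chr7:60004501-60005000 read 23.2, 22.7 and 30.5% in Control and 27.6, 18.3 and 15.7% in CSDS. It was of the split class, and without the 2 of 3 CpGs whose strands differed it stood at 16.3 and 10.4%. At Zrsr1, a retrogene inside Commd1, the tiles chr11:22971501-22972000 and chr11:22974001-22974500 held no such CpG and read 21.1% ± 1.54 and 28.9% ± 2.10 (SD, n = 3) in Control and 19.9% ± 4.04 and 25.8% ± 3.43 in CSDS. The groups overlapped in all 3 tiles.

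Outside the control regions, a pair of neighbouring tiles lay at Zdbf2 and Gpr1, a locus with a paternally methylated imprint. The tile chr1:63200501-63201000 read 19.7, 31.9 and 26.6% in Control and 26.9, 7.86 and 15.2% in CSDS, and chr1:63200001-63200500 read 24.5, 30.3 and 24.8% against 26.9, 8.69 and 13.8%. In both, CSDS replicates 2 and 3 lay under all Control libraries and CSDS replicate 1 among them, and the adjusted p were 0.352 and 0.264 (quasi-binomial F test). At Meg3, an imprinted long non-coding RNA gene that shares its tile with Gm34081, the tile chr12:109540501-109541000 read 26.4, 26.5 and 26.0% against 24.6, 18.7 and 27.3%. Without its CpGs whose strands differed it read 15.8% in Control and 17.01% in CSDS, which turned the direction. Magel2, chr7:62377501-62378000, read 21.0, 25.9 and 24.7% against 18.8, 14.98 and 16.7%, with the groups apart by -7.07 points between means and an adjusted p of 0.159, and Usp29, chr7:6952501-6953000, read 26.3, 36.0 and 32.5% against 29.9, 24.2 and 22.7%.

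Genes of the germ line came next. Tiles of germline-specific genes were stable and intermediate in 15 of 88 cases (17.045%), with a median difference of -5.37 points and 14 of 15 lower in CSDS, against -3.67 points and 84.5% lower over all 8673. The cohesin gene Stag3, whose tile it shares with Gpc2, had 44 cytosines at chr5:138275501-138276000, was uniform and read 37.1, 36.8 and 38.9% in Control and 32.8, 37.1 and 33.9% in CSDS. Rpl10l, a retrogene of a ribosomal protein that acts in meiosis, read 21.1% ± 1.94 in Control and 15.2% ± 4.32 in CSDS (SD, n = 3) at chr12:66284001-66284500. Of 49 tiles of spermatogenesis genes only 1 was a member, Tnp1, a transition nuclear protein gene, at 21.6% ± 2.37 and 16.6% ± 2.37, with 4 of its 13 CpGs differing between strands. The piRNA pathway gave 4 of 45. Among them Tdrd6, a tudor domain gene, was uniform and read 39.0, 41.5 and 42.9% against 40.5, 34.4 and 27.6% at chr17:43628001-43628500, and Asz1 read 32.1, 14.7 and 24.0% against 21.9, 14.1 and 19.7%. Groups overlapped in Tdrd6 and Asz1.

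Genes of DNA methylation and imprint protection gave 10 of 106 tiles (9.43%), all 10 lower in CSDS with a median of -3.74 points, where 84.5% of all 8673 tiles were lower with a median of -3.67. Dnmt3a, the de novo methyltransferase, had an interior tile at chr12:3871501-3872000 that read 33.1, 31.5 and 36.7% in Control and 30.8, 27.3 and 27.2% in CSDS. The groups were apart by less than 1 point, with a difference of -5.34 points and an adjusted p of 0.236 (quasi-binomial F test). Tet1, a 5-methylcytosine dioxygenase, was uniform at chr10:62879501-62880000, where Gm51805 also lies, and read 63.4, 58.8 and 57.6% against 64.2, 56.2 and 55.8%, with the groups overlapping.

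Genes of the stress axis gave 10 of 101 tiles (9.90%), 9 of them lower in CSDS with a median of -3.72 points, which is near the same background. Sgk1, a kinase induced by glucocorticoids, read 37.5, 46.3 and 31.7% in Control and 29.8, 27.6 and 30.7% in CSDS at chr10:21998501-21999000. The groups were apart by less than 1 point, with a difference of -9.15 points and an adjusted p of 0.172 (quasi-binomial F test). Without Control replicate 2 the difference was -5.23 points. Nr3c2, the mineralocorticoid receptor, was the member on the other side, a uniform tile at chr8:76909501-76910000 that read 51.6, 45.9 and 42.2% against 53.6, 49.7 and 53.3%. Its groups overlapped and its adjusted p was 0.294.

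Hox genes, regulators of body pattern, gave 17 of 193 tiles (8.81%), 16 of them lower in CSDS with a median of -5.30 points, against 84.5% lower and -3.67 points over the 8673. Hoxd3 had a uniform tile with no CpG whose strands differed at chr2:74738501-74739000, which read 47.1, 43.0 and 41.8% in Control and 46.8, 34.8 and 34.4% in CSDS. Another at chr2:74734501-74735000 read 24.3, 26.0 and 20.9% against 23.1, 17.4 and 21.9%, and a tile shared with Hoxd4 at chr2:74728001-74728500 read 22.6, 26.3 and 17.4% against 21.0, 12.4 and 14.9%. The groups overlapped in all 3. Clustered protocadherins, cell surface genes expressed by choice of promoter, gave 11 of 74 tiles (14.9%), none uniform.

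Marker genes of other cells of the testis gave 3 of 66 tiles for Sertoli cells, 3 of 31 for Leydig cells, 5 of 58 for endothelium and 0 of 8 for immune cells. The Leydig hormone gene Insl3, which shares its tile with Jak3, read 75.3, 69.5 and 72.5% in Control and 56.1, 60.5 and 68.1% in CSDS at chr8:71688001-71688500. The groups nearly met, with a difference of -10.9 points between means and an adjusted p of 0.174 (quasi-binomial F test). In the next tile of these genes, chr8:71688501-71689000, the groups overlapped, with -4.90 points and an adjusted p of 0.491 (same test). The Sertoli gene Wt1 read 28.0, 31.9 and 29.7% against 27.9, 19.96 and 20.5% at chr2:105143501-105144000, and the endothelial gene Pecam1 read 54.6, 55.1 and 52.0% against 49.7, 42.5 and 53.3% at chr11:106699501-106700000. Of the 5 endothelial tiles 4 were lower in CSDS, and the other, in Vwf at chr6:125603001-125603500, read 32.7, 33.7 and 37.8% against 36.3, 45.2 and 30.8%. Methylation of a marker gene does not count cells, and the part of other cell types in these levels was not tested.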

How the data were processed

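Germ cell DNA was prepared for RRBS with a Zymo-Seq kit, per the labels' protocols. Trim Galore 0.5.0, Bismark 0.20.0 and GRCm38 are named in the submitters' processing notes, and duplicate handling and conversion rate are not given in the sources used here. The deposited tables list, per the file headers, each CpG cytosine with its strand, a read count (coverage), and what percent of the reads show C or T. Percent times coverage was whole to within 1e-06, so methylated counts were taken from it. No listed position had under 10 reads. Libraries listed 2420308 to 3156788 cytosines at a median coverage of 44 to 50 reads, and 2166834 autosomal cytosines were shared by all. A tile had a median of at least 711 reads per library, which gives a binomial standard error of 1.88 points at a level of 50%, for counting error only, since the labels name no molecular identifiers.

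Methylated and unmethylated counts per tile entered a logistic model with group as the predictor. Quasi-binomial dispersions, moderated by limma 3.58.1 (squeezeVar, R 4.3.3) with a floor of 1, gave F tests whose p-values were adjusted over 79015 tiles by Benjamini-Hochberg. On simulated counts with the read numbers of these tiles and libraries, 41 of 100 tiles changed by 20 points and 0 of 100 changed by 10 points were recovered, with 0 false calls. The simulation used a single fixed spread between libraries and changed only tiles of middle level. That spread was not estimated from these libraries. At the usual read number of a tile it is smaller than their median dispersion in CSDS, 5.995 in the stable intermediate tiles. The shares recovered and the false calls may therefore look better than they would in these libraries. Alternatives were limma on log2 ratios of the deposited counts (pseudocount 1), edgeR 4.0.16, and the settings in the closing section. Genes were named by a rule: tiles with groups apart and the smallest p (10 each way), tiles in imprint regions, those with most reads per gene list, the longest runs, and uniform gene end tiles with most cytosines. A few listed members are not described. Gene bounds and promoter sequences came from RefSeq tables of GRCm38.p6, and imprint regions were placed from approximate known positions. The members and lists were chosen with earlier results of these data known.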

Additional observations from a re-analysis of the deposited data

How the results depend on the processing

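The number of tiles that meet the rule was 5489 without CpGs whose strands differed by 40 points or more in CSDS reads (5439 of them among the 8673), 4602 with a limit of 20 points and 5401 with Control reads in place of CSDS reads. These settings were chosen after seeing the data, and fewer cytosines per tile are left under them. With each cytosine weighted equally it was 12227 (8098 of them among the 8673), at a coverage of at least 20 it was 5821 (5677 among them), and leaving out a Control replicate gave 8491 to 8757. The share still at 20 to 80% in CSDS was 94.9% with each cytosine weighted equally, 70.2% after the mitochondrial correction (which left 6389 of the 8673 in that range in Control itself), 74.7% without CpGs whose strands differed, and 78.7 to 87.6% without a CSDS replicate. The median difference was -1.50 points after the mitochondrial correction and -5.13 to -2.87 without a replicate, with CSDS replicate 1 left out at the lower end. Called tiles numbered 2 with edgeR and 0 to 804 without a replicate, the 804 without CSDS replicate 1. Uniform tiles numbered 5909 at 10 to 90% per cytosine and 2755 to 2891 without a CSDS replicate. Replicate numbers did not pair the libraries, with correlations of deviations of -0.063, -0.0747 and 0.0189 between same-numbered ones. With a replicate block 0 of the tiles were called and 976 had an unadjusted p under 0.05.

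Of the described single tiles, the difference turned upward after the mitochondrial correction at Zfp64 (1.14 points), Tet1 (0.432), Zrsr1 at chr11:22971501-22972000 (2.02), Gm40847 (2.01), Gm10476 (1.00), Gm40862 (0.198) and Gm38699 (0.491). It turned at Gm40862 (1.20) and Gm38699 (3.16) with equal weights and at Meg3 (1.18) without CpGs whose strands differed. Without a replicate it ranged from -3.003 to 1.02 at Zrsr1 (the same tile), -4.77 to 5.24 at Gm10476, -6.90 to 2.69 at Gm38699, -4.19 to 1.59 at Gm40847, -2.75 to 1.15 at Gm40862, -3.93 to 0.536 at Tet1, -2.08 to 6.18 at Zdhhc25 and -3.35 to 0.0635 at Zfp64. The cause was not tested. Only cytosines listed in all libraries were used. Changes of 10 points were not recovered in the simulated counts, where a call itself required an observed difference of at least 10 points. What size of change the test can detect in these libraries was not tested beyond that simulation.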
